A study of Mus musculus with 4 samples.

Results

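Colony-stimulating factor (CSF) receptors and their ligands were described across microglia, the resident macrophages of the brain. The set holds 9 genes, chosen by symbol and not by level. The receptor genes are Csf1r, Csf2ra, Csf2rb, Csf2rb2 and Csf3r, and the ligand genes are Csf1, Il34, Kitl and Flt3l. All 9 were found among the 56832 gene rows of each file. The study transplanted blood stem cells or bone marrow into mice, blocked CSF1R with an inhibitor and compared graft-derived brain myeloid cells with the microglia of litter mates. The 4 libraries used here are all naive microglia of female C57BL/6 mice that had received no transplant and no other intervention, taken from dissociated brain by a flow cytometry gate for CD11b and low to intermediate CD45. Graft-derived cells were not analysed here, so the data hold 1 group and no contrast between treatments. The labels give neither the age of the mice nor whether the libraries stem from different mice, so p-values measure the spread between these libraries, which may be technical.

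CSF1R is a receptor tyrosine kinase that keeps tissue macrophages alive, and microglia are lost when it is blocked. It has a pair of ligands that do not resemble each other in sequence, CSF1, made by many cell types, and IL-34, made in the brain mainly by neurons. The other receptors are cytokine receptors without a kinase of their own, and signal through JAK kinases and STAT factors. CSF2RA binds GM-CSF and pairs with the common beta chain, CSF2RB, which the receptors for IL-3 and IL-5 also use. Mice carry a second beta chain gene, Csf2rb2, whose product pairs with the IL-3 receptor. CSF3R binds G-CSF and is best known from neutrophils. The proteins of Kitl and Flt3l are ligands of the receptor kinases KIT and FLT3 on blood progenitors.

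The libraries held 20360121 to 23292655 reads assigned to genes, and 13944 to 18978 genes with a count. Levels are given as CPM, the count scaled to the reads assigned to genes in that library. Where no read was counted, a true level of up to 3 counts (0.129 to 0.147 CPM) is still possible, and this limit, like every interval given, covers counting error only. All 8 microglia markers, among them Tmem119, P2ry12 and Sall1, stood at 10 CPM or more in every library. Their summed CPM was 51205, 26327, 27252 and 54771 in replicates 1 to 4. The libraries stood apart in several other lists. Summed CPM of 18 immediate early genes was 5505, 59791, 51874 and 5840, and that of 11 neutrophil markers was 1510, 296, 281 and 2417. Replicate 4 had low values for many genes: of 8261 genes that averaged 10 CPM or more in replicates 1 to 3, 14.1% were at least 16-fold lower in replicate 4. The same share was 3.36%, 0.161% and 0.258% for replicates 1, 2 and 3, each set against the remaining libraries. No libraries were the same within counting noise. Replicates 2 and 3 were the closest pair. Their root mean square log2 difference over genes passing a filter on low counts was 0.527, against 0.977 to 1.44 in the other pairs.

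The coding sequences of the beta chain genes Csf2rb and Csf2rb2, both on chromosome 15, are shown first because their near-identity bears on how far their counts can be told apart. Taking the longest reading frame in GENCODE transcripts (GRCm38) as the coding sequence, 95.2% of 2631 aligned coding bases were identical. Of all stretches of 50 bases in the Csf2rb2 coding sequence, 26.5% also occurred in a Csf2rb transcript, and 11.3% of stretches of 100 bases did. The read length is not given in the sources used here. The longest run that both genes share, 242 bases starting at base 2083 of each coding sequence, reads as follows.
Csf2rb and Csf2rb2: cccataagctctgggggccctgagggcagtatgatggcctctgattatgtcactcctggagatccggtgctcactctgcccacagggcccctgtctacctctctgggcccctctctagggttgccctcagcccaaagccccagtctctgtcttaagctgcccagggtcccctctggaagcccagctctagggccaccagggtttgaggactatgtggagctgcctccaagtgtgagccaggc

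Promoters of Csf2ra, Csf3r and Csf1 are shown because Csf2ra and Csf1 had the widest fold range among members with reads in every library, and Csf3r the highest level after Csf1r. All 3 were highest in replicate 2, as Csf1r, Csf2rb and Il34 were. Of the members, 6 were matched to a RefSeq promoter, and Csf1r, Csf2rb and Il34 were not. Each line gives the 250 bases before the transcription start, from RefSeq on GRCm38.p6, with capitals for motif matches on either strand.
Csf2ra, chr19:61228419-61228668, minus strand: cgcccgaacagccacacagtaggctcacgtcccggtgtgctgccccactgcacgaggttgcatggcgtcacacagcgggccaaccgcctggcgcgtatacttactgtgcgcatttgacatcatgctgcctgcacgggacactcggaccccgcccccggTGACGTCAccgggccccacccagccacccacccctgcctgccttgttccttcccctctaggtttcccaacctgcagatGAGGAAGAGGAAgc
Csf3r, chr4:126024409-126024658, plus strand: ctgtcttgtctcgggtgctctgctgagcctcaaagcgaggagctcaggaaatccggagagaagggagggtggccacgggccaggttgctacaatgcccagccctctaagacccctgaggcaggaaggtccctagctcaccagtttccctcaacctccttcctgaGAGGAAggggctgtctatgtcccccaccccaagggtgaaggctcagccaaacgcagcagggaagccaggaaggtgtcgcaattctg
Csf1, chr3:107760470-107760719, minus strand: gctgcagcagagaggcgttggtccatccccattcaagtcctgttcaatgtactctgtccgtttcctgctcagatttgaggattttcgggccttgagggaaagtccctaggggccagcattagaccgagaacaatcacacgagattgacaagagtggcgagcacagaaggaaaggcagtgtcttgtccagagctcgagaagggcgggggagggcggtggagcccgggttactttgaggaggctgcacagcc
The motifs searched were AP-1 (TGANTCA), the cAMP response element CRE (TGACGTCA), NF-kB (GGGNNTTCC) and, for the macrophage factor PU.1, both GAGGAA and the longer GAGGAAGT that contains it. GAGGAA was found before the start of 3 of the 6 members, namely Csf2ra, Csf3r and Csf2rb2, and in 23.3% of all 32851 promoters. The Csf2ra promoter held 2 GAGGAA matches next to each other, from 14 to 3 bases before the start, and 1 CRE match from 92 to 85 bases before it. CRE matches were found in 1.55% of all promoters. In the exact letters given, AP-1, NF-kB and the longer PU.1 motif had no match in the 6 windows, against 6.75%, 4.98% and 2.44% of all promoters. Other forms of these motifs, such as NF-kB sites of another length, were not searched. The Csf1 window, for example, holds ggaaagtccc, a longer form that the NF-kB letters searched cannot match. The lack of a match thus does not mean that a window holds no such site. A match describes letters only and is not a measured binding site.

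Csf1r was the most abundant member in every library by a wide margin. It gave 6073, 6515, 4218 and 3079 CPM in replicates 1 to 4, a mean of 4971 ± 1607 CPM (SD, n = 4). Replicates 1 and 2 were high and replicate 4 was low, with a 2.12-fold range. In order of CPM, Csf1r stood at place 15, 12, 24 and 26 among all genes of replicates 1 to 4. It took 91.7% ± 2.61 (SD, n = 4) of the reads of the 5 receptor genes, and 87.8% ± 4.0 when counts were divided by exon length. The read share was 94.9% in replicate 1 (95% exact Clopper-Pearson interval 94.8 to 95.1) and 89.0% in replicate 3 (88.8 to 89.1). Hmgxb3, a gene on the opposite strand, overlaps 15.1% of the annotated Csf1r exon bases on GRCm38, and the strand setting of the counting is not given in the sources used here. Hmgxb3 itself gave 2.86 to 23.8 CPM.

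Csf3r, the G-CSF receptor gene, was the second most abundant member. It gave 177, 424, 328 and 186 CPM in replicates 1 to 4, a mean of 279 ± 119 CPM (SD, n = 4). Replicates 2 and 3 were high and replicates 1 and 4 low. Neutrophils also express Csf3r, and the summed neutrophil markers were lowest in replicates 2 and 3. Elane, a neutrophil granule gene, did not follow the sum and gave 14.7, 9.17, 8.41 and 1.38 CPM in replicates 1 to 4. All 11 neutrophil markers had a count in at least 1 library, and 9 reached 1 CPM in every library. The defining neutrophil gene Ly6g gave 2.09 and 1.24 CPM in replicates 1 and 2 and 0 counts in replicates 3 and 4. S100a8, a calprotectin gene of neutrophils, gave 480, 80.3, 73.4 and 979 CPM. Summed CPM of 6 border macrophage markers was 172, 567, 635 and 355 in replicates 1 to 4. That of 6 oligodendrocyte markers was 361, 1567, 1635 and 366. Both sums were highest in replicates 2 and 3 like Csf3r, as were the border macrophage genes Mrc1, Lyve1, F13a1 and Pf4. Cd163 and Ms4a7, also in that list, were instead highest in replicate 4, at 32.6 and 83.5 CPM. The oligodendrocyte gene Mag was higher in replicate 4 than in replicate 3, at 76.8 and 65.8 CPM. The part of other cells in the Csf3r level was not tested.

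Csf2ra, the GM-CSF binding chain, gave 62.0, 148, 119 and 1.38 CPM in replicates 1 to 4. Replicate 4 stood far below the others, with 28 reads against 1277 to 3337. That is 79.7-fold below the mean of replicates 1 to 3. Csf2rb, the common beta chain, gave 38.4, 79.9, 52.7 and 36.6 CPM, with no such drop in replicate 4. Csf2rb2, the second beta chain, gave 45.7, 37.7, 24.0 and 23.6 CPM and was the receptor gene with its highest level in replicate 1. The share of Csf2rb in the reads of both beta chain genes was 45.6% in replicate 1 (43.3 to 48.0), 67.9% in replicate 2 (66.1 to 69.7), 68.7% in replicate 3 (66.5 to 70.8) and 60.8% in replicate 4 (58.1 to 63.6). Replicate 1 thus had more reads of Csf2rb2, while the other 3 had more of Csf2rb. Reads from the shared stretches could have been dropped or split between these genes, so both levels are uncertain.

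**Figure D1:**
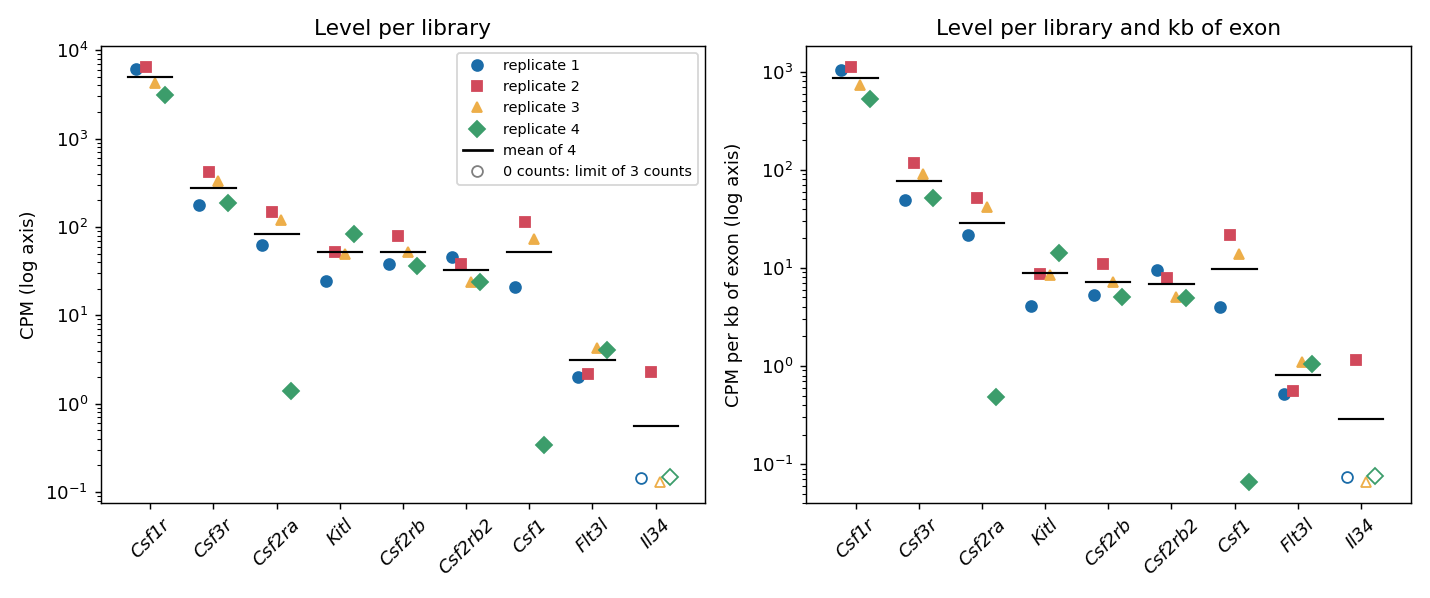
Level of each gene in each library, as CPM (left) and as CPM per kb of exon (right), both on log axes, with genes in order of their mean log2 level per kb. Symbols are the 4 libraries, bars are means, and open symbols mark 0 counts, drawn at the limit of 3 counts; Csf1r lies above all others in every library, and Csf2ra and Csf1 drop in replicate 4.

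Among the ligand genes, Kitl and Csf1 had the most reads, and their levels differed in which libraries were high. Csf1, the ligand of CSF1R, gave 21.01, 114, 72.9 and 0.344 CPM in replicates 1 to 4. Replicate 4 had 7 reads (95% exact Poisson interval 0.138 to 0.708 CPM), 202-fold below the mean of the other libraries. Csf1 made up 44.4%, 67.1%, 57.4% and 0.387% of the reads of the 4 ligand genes in replicates 1 to 4. Csf2ra and Csf1 were the members at least 16-fold lower in replicate 4 than in the others, 2 of the 7 members that averaged 10 CPM or more in replicates 1 to 3, in a library where 14.1% of genes met that rule. The rule was chosen after these values were seen. In bulk samples, fewer cells of a type and less RNA per cell cannot be told apart. Replicate 4 also had the fewest genes with a count, 13944 against 14850 to 18978 in the other libraries. The part of the low-input cDNA amplification in these drops was not tested.

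Il34, the other CSF1R ligand, had 51 reads in replicate 2, which is 2.26 CPM (1.68 to 2.97), and 0 reads in replicates 1, 3 and 4. Replicate 2 alone rose above the limit of 3 counts. Of 6 neuron markers, all below 1 CPM in at least 1 library, the summed CPM was 0.0485, 11.1, 20.2 and 0.147 in replicates 1 to 4. In replicate 2, where Il34 was read, the synaptic gene Snap25 had 167 reads, Tubb3 36, Syt1 28, Rbfox3 19, Gad1 1 and Slc17a7 0. In replicate 3, where Il34 had 0 reads, Snap25 had 325, and in replicates 1 and 4 it had 1 and 2. The part of other cells in the Il34 reads was not tested.

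Kitl, the ligand of KIT, gave 24.3, 51.5, 49.8 and 84.3 CPM in replicates 1 to 4, and had the most reads of the ligand genes in replicates 1 and 4. It was low in replicate 1 and high in replicate 4. Endothelial and mural cells are known sources of Kitl, and summed CPM in replicates 1 to 4 was 67.8, 106, 81.8 and 81.8 for 6 endothelial markers and 21.5, 104, 95.4 and 135 for 6 mural and fibroblast markers. Among the mural markers, Vtn gave 15.8, 29.1, 30.4 and 61.2 CPM and Rgs5 gave 0.146, 59.6, 53.0 and 72.3 CPM. Both were lowest in replicate 1 and highest in replicate 4 like Kitl. The remaining mural and fibroblast markers were not highest in replicate 4, where Dcn gave 0.982, Col1a2 0.147, Pdgfrb 0.0491 and Col1a1 0 CPM. The endothelial marker Cldn5 stood at 16.6 to 29.1 CPM, while Cdh5 was at 0 counts in replicates 1 and 4 and Pdgfrb, a mural marker, in replicate 1. The part of these cells in the Kitl level was not tested. Flt3l, the ligand of FLT3, gave 1.99, 2.17, 4.25 and 4.08 CPM from 41 to 99 reads. The Poisson intervals of replicates 1 and 2 reached 2.699 and 2.87 CPM, below those of replicates 3 and 4, which began at 3.45 and 3.25 CPM. These intervals cover counting error only, and the spread of Flt3l between libraries was 0.728 times the trend of genes at like abundance. In GENCODE, the gene Gm45713 overlaps 22.1% of Flt3l exon bases on the same strand and had at most 0.177 CPM.

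Few reads were counted for the matching receptors and cytokines. Of 10 partner genes, 6 had 0 counts in every library: the cytokine genes Csf2, Csf3, Il3 and Il5, the IL-5 receptor gene Il5ra, and Sdc1, a syndecan described as an IL-34 receptor. Il3ra, the IL-3 binding chain that pairs with the beta chains, was the partner at 1 CPM or more in every library, with 8.88, 3.54, 3.52 and 14.6 CPM in replicates 1 to 4. Il3ra was thus high in replicates 1 and 4. Kit, the receptor of the Kitl product, had 0, 55, 15 and 1 reads, and Flt3, the receptor of the Flt3l product, had 0, 47, 0 and 14. Ptprz1, a phosphatase also described as an IL-34 receptor, gave 0.0485, 8.02 and 4.16 CPM in replicates 1 to 3 and 0 counts in replicate 4. So Kitl and Flt3l transcripts were read in every library, while their receptors' transcripts were at 0 counts in replicate 1. Of the 9 members, 7 reached 1 CPM in every library, against 14.8% of all gene rows.

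Levels of different members were compared per kb of exon within each library. In order of mean log2 level per kb, the genes were Csf1r, Csf3r, Csf2ra, Kitl, Csf2rb, Csf2rb2, Csf1, Flt3l and Il34. Csf1r exceeded its neighbour Csf3r by 3.52 ± 0.62 log2 units (SD, n = 4) and was higher in 4 of 4 libraries. It exceeded Csf2rb by 6.93 ± 0.48 and its own ligand gene Csf1 by 8.09 ± 3.39, also in 4 of 4. For Csf1 the log2 ratio of Csf1r was 8.04, 5.70, 5.73 and 12.90 in replicates 1 to 4.

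Further down the order, most neighbours did not differ beyond their spread. Neighbours were picked from the order of these same levels. The sign of each mean was thus fixed in advance, and small differences follow in part from that choice. Csf3r over Csf2ra gave 1.19, 1.19, 1.13 and 6.72 in replicates 1 to 4, nearly the same value in 3 libraries, and the mean of 2.56 lay within 1 SD (2.78) because of replicate 4. Csf2ra over Kitl gave 0.59 ± 3.65, Kitl over Csf2rb 0.26 ± 0.87, Csf2rb over Csf2rb2 0.03 ± 0.64, Csf2rb2 over Csf1 1.14 ± 3.58 and Csf1 over Flt3l 1.98 ± 4.05 (SD, n = 4). Each of these 5 changed sign between libraries at these exon lengths. Some of them depend on the length used, as given below. The last neighbours, Flt3l over Il34, gave 5.39, -1.04, 6.65 and 6.40, but Il34 had 0 counts in 3 libraries, so no fold is given.

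The subunits of the GM-CSF receptor and the ligand pairs were set against each other directly. Csf2ra over Csf2rb gave 2.03, 2.23, 2.52 and -3.37 in replicates 1 to 4, so the binding chain was higher per kb in 3 libraries and the beta chain in replicate 4. The mean of 0.85 ± 2.82 lay within the spread (SD, n = 4). Csf1 over Kitl gave -0.05, 1.31, 0.71 and -7.68. Kitl over Flt3l was steadier, at 3.41 ± 0.52 with Kitl higher in 4 of 4 libraries. Without replicate 4, Csf2ra over Csf2rb averaged 2.26, Csf2ra over Kitl 2.42, Csf3r over Csf2ra 1.17, Csf1r over Csf2ra 4.73 and Csf1r over Csf1 6.49. In the same 3 libraries Csf1 over Flt3l averaged 3.95, while Csf1 over Kitl averaged 0.66, Kitl over Csf2rb -0.16 and Csf2rb2 over Csf1 -0.54, the last 3 with the sign turned. All 15 pairs were put to an exact permutation test that flips the sign of each library's ratio, two-sided. The 7 pairs with 1 order in 4 of 4 libraries had an adjusted p = 0.268 in this exact test, which cannot reach 0.05 with 4 libraries and 16 sign patterns. The other 8 pairs had unadjusted p of 0.25 to 0.875 in the same exact permutation test.

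**Figure D2:**
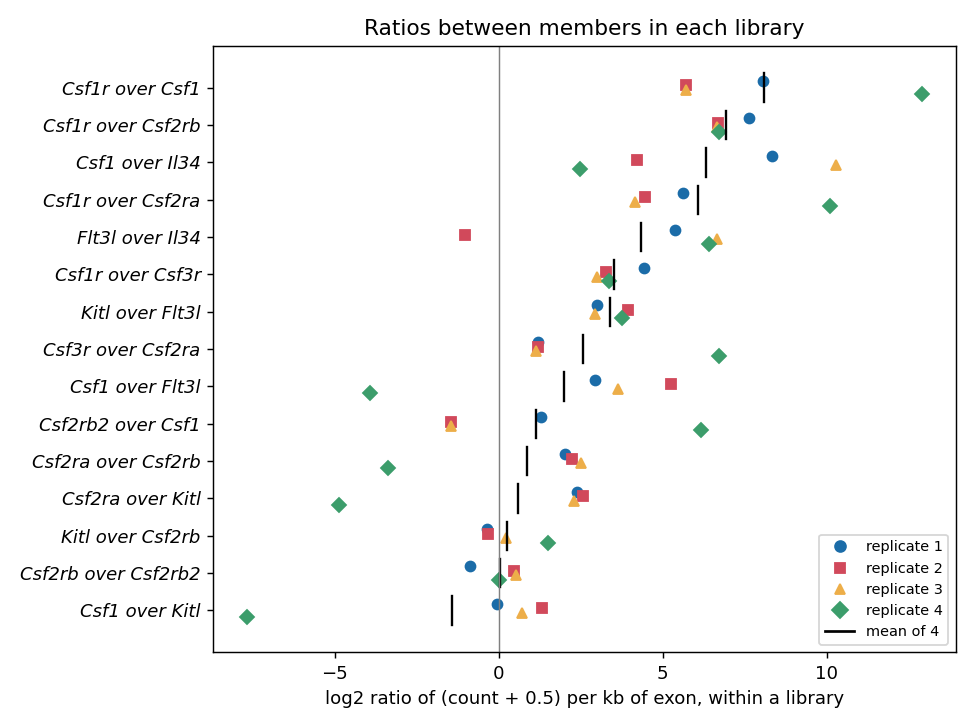
Ratios between pairs of genes in each library, as the log2 of (count + 0.5) per kb of exon of the first gene over the second. Symbols are libraries, bars are means and the vertical line marks equal levels. Every pair with Csf1r lies right of the line in every library. Replicate 4 lies far from the others in the pairs that hold Csf2ra or Csf1, other than Csf1 over Il34.

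The spread of each member between libraries was set against the trend of genes at like abundance in an edgeR quasi-likelihood fit. Of the 9 members, 7 passed the filter on low counts. Csf1 and Il34 failed it through their low libraries and had no test. No tested member was called by the upper-tail F test at an adjusted p under 0.05, and 0% of all 9075 genes were called. At an unadjusted p under 0.05, the count was 1 of 7 members, Csf2ra, against 4.3% of all genes, and DESeq2 called no dispersion outlier among them, with 0% of all genes. Csf2ra had a dispersion 24.2 times the trend, at percentile 99.7 of all genes tested (edgeR adjusted p = 0.944). Without replicate 4, Csf2ra no longer had an unadjusted p under 0.05, and Csf1, which then passed the filter, had one. Csf3r stood at 3.46 times the trend and Kitl and Csf1r at 1.59 and 1.499. Csf2rb, Flt3l and Csf2rb2 lay close to it or below, at 1.14, 0.728 and 0.570. With no filter, Csf1 stood at 20.2 times the trend.

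**Figure D3:**
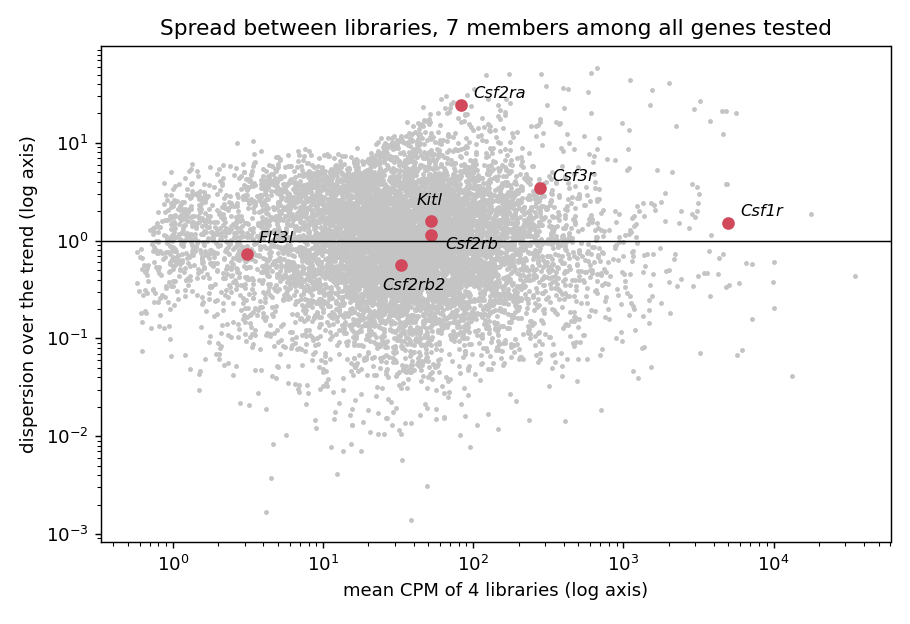
Dispersion between libraries divided by the trend at the same abundance (log axis) against mean CPM of the 4 libraries (log axis), for all 9075 genes tested in grey and the 7 tested members in red. The line marks the trend; Csf2ra lies at 24.2 times it, and the other 6 lie between 0.570 and 3.46.

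Levels of Csf1r and Csf3r over the 4 libraries were set beside all other tested genes, by the root mean square difference of their centred log2(CPM + 0.5) profiles. The genes closest to Csf1r were Gtpbp6, Tln1, which encodes the adhesion protein talin, and Tomm40, a mitochondrial import pore gene, at 0.0341, 0.0431 and 0.0493. Tln1 gave 158, 172, 108 and 74.9 CPM in replicates 1 to 4. Closest to Csf3r were Gm7292, Gm10167 and Opa1, a mitochondrial fusion gene, at 0.0217, 0.0455 and 0.0589. Within a difference of 0.2 there were 172 genes for Csf1r and 126 for Csf3r among 9074, so such likeness over 4 libraries was common. No gene came within 0.2 of Csf1 among the 9075 compared. Csf1 itself failed the filter on low counts, and genes with as few reads in replicate 4 were not among those compared. Its nearest were Nrd1 at 0.289, Birc3, an apoptosis inhibitor gene, at 0.289, and Ppp1r3b, a glycogen phosphatase subunit gene, at 0.302. Birc3 gave 30.7, 187, 182 and 1.03 CPM.

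**Figure D4:**
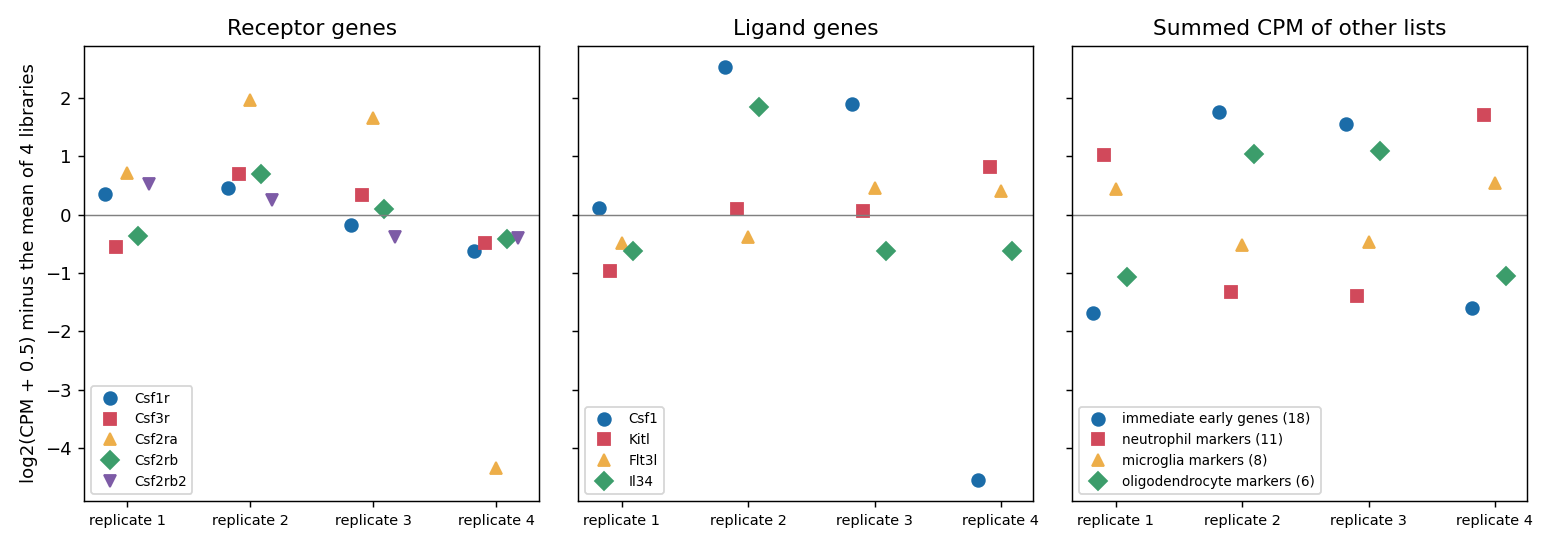
Level of each gene in each library as log2(CPM + 0.5) minus the mean of the 4 libraries, for receptor genes (left), ligand genes (middle) and the summed CPM of 4 other gene lists (right). Csf3r, Csf2ra and Csf1 were highest in replicate 2, immediate early genes were high in replicates 2 and 3, and neutrophil markers were high in replicates 1 and 4.

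Genes that act downstream of these receptors were mostly read in every library. Of 32 CSF1R signalling genes, 26 reached 1 CPM in every library and the list median was 68.7 ± 10.99 CPM (SD, n = 4), against 2.06 ± 1.35 CPM over all genes with a count. Those with the highest CPM were Tyrobp, the adaptor DAP12, at 1443 ± 407, the lipid phosphatase gene Inpp5d at 466 ± 206, the kinase gene Lyn at 443 ± 51.3 and the tyrosine phosphatase gene Ptpn6 at 441 ± 66.7. Of 26 tested genes of this list, edgeR's F test called 0 at an adjusted p under 0.05 and 2 at an unadjusted p under 0.05, against 4.3% of all genes. These were Syk, a kinase that docks on DAP12, with 128, 152, 112 and 8.79 CPM in replicates 1 to 4, and the PI 3-kinase subunit gene Pik3r1, with 131, 319, 265 and 72.1 CPM. Both were lowest in replicate 4, the library in which 14.1% of genes were at least 16-fold lower.

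The JAK, STAT and feedback list, which follows the cytokine receptors, showed 9 of 13 genes at 1 CPM or more in every library. Its median was 18.1 ± 12.4 CPM (SD over 4 libraries). Socs3, a feedback inhibitor that binds CSF3R, gave 49.7, 769, 334 and 79.0 CPM in replicates 1 to 4. It was high in replicates 2 and 3, where Csf3r was also high. The summed CPM of immediate early genes, 5505, 59791, 51874 and 5840, was high in the same libraries. The part of that wider shift in the Socs3 level was not tested. Jak1 and Stat3 stood at 263 ± 58.1 and 152 ± 62.2 CPM. Jak2, the kinase that the GM-CSF and IL-3 receptors use, gave 1.41, 16.7 and 12.8 CPM in replicates 1 to 3 and 0 counts in replicate 4. Stat5a gave 1.99, 22.4, 4.89 and 0.491 CPM. Of 10 tested genes, edgeR's F test called 0 at an adjusted p under 0.05 and 3 at an unadjusted p under 0.05, against 4.3% of all genes, namely Socs3, Sh2b3 and Stat5a.

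Of 10 transcription factor genes listed as possible regulators of Csf1r, a role not tested here, 9 reached 1 CPM in every library. Their median was 127 ± 32.1 CPM (SD over 4 libraries). Those with the highest CPM were Mef2c at 705 ± 42.4, Irf8 at 556 ± 115, Spi1, the gene of PU.1, at 461 ± 24.3, and Fli1 at 232 ± 57.1. Spi1 gave 484, 479, 438 and 441 CPM in replicates 1 to 4, a narrower range than Csf1r. Ets2, which gave 14.1, 74.6, 70.3 and 0.737 CPM, and Cebpb, at 31.4, 87.8, 35.0 and 3.09 CPM, were the 2 of 10 tested genes with an unadjusted p under 0.05 by edgeR's F test, against 4.3% of all genes, and none of the 10 was called at an adjusted p under 0.05.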

How the data were processed

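RNA from sorted naive microglia was sequenced in 4 libraries of 1 group, replicates 1 to 4, after low-input cDNA amplification. The deposited values are unnormalized counts of reads for each gene symbol, 1 file per library. STAR 2.7.10a, SAMtools 1.16.1, HTSeq 0.11.2 and the build GRCm39 are named, per the submitters' processing notes. The sources used here name no annotation, strandedness or read filter. The 5 last rows, of unassigned reads, held 20.8% ± 1.28 of reads (SD, n = 4) and were left out. CPM were computed on reads assigned to genes. Exon lengths are unions of exons in GENCODE M21 (GRCm38), and 89.1% of gene rows had one by symbol. Spread was tested in edgeR 4.0.16 (R 4.3.3) after filterByExpr (minimum count 10), with TMM scaling. The test used an intercept-only fit and Benjamini-Hochberg adjustment over all genes. The fit was also run on simulated counts. Their spread between libraries was set below that of these data, so that run does not show the power of the test here. Pairs were tested by an exact sign-flip permutation test over 16 sign patterns, 9 pairs from a written list and the neighbours in the order of levels. The named genes were all 9 members, all partner genes, the 4 highest genes of each pathway list, and the 3 nearest profiles of Csf1r, Csf3r and Csf1; 1 gene that the rule names is not reported here. Jak2, Stat5a, Syk and other pathway genes outside that rule were chosen after their values were seen. The members and lists were chosen with earlier results of these data known. DESeq2 1.42.0 gave other size factors and dispersion outliers. Python 3.11.15 with scipy 1.17.1 and Biopython 1.88 did the rest.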

Additional observations from a re-analysis of the deposited data

Results flagged for a closer look

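In groups of 4, a library was singled out when its gap to the nearest other library exceeded Dixon's 95% critical share of the whole range. Chance singles out about 1 in 20 groups, and 24 were examined, of which 7 were singled out; several share a gene, so they are not independent. Il34 had 2.26 CPM in replicate 2 and 0 counts elsewhere. Its gap is then the whole range whatever the value in replicate 2, so the rate of 1 in 20 does not hold for it. The log2 ratio per kb of Flt3l over Il34 was -1.04 in replicate 2, against 5.39 to 6.65 in the others. That ratio rests on the same 0 counts. Replicate 4 was singled out in 4 ratios that hold Csf2ra or Csf1. These were Csf2ra over Csf2rb at -3.37, Csf2ra over Kitl at -4.87, Csf3r over Csf2ra at 6.72 and Csf1 over Kitl at -7.68. In replicate 4, 14.1% of genes were at least 16-fold below the other libraries, and the part of that shift in these ratios was not tested. Csf1r over Csf2rb was 7.64 in replicate 1, against 6.66 to 6.73 in the others.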

How the results depend on the processing

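No gene at all was called variable under any alternative run, so the 0 calls among members say nothing of stability. At an unadjusted p under 0.05 the member was Csf2ra, but Csf1 without replicate 4 and both with no filter. Leaving out 1 replicate gave mean levels of 31.4 to 69.4 CPM for Csf1, 60.7 to 110 CPM for Csf2ra and 0 to 0.753 CPM for Il34, and Csf1 was lowest and Il34 at 0 without replicate 2. The count at 1 CPM in every library was 7 to 8 without 1 replicate, and 5 at 5 CPM. Of 120 alternative pair ratios, 109 kept their sign and 11 turned it, all in pairs that did not differ beyond their spread. With no length correction, Csf2ra over Csf2rb was -0.49, Csf2ra over Kitl -0.45 and Kitl over Csf2rb -0.042; with coding length, chosen after seeing the data, Csf2ra over Kitl was -0.76. Leaving out 1 replicate gave -0.13 to 0.33 for Csf2rb over Csf2rb2, -2.34 to 0.66 for Csf1 over Kitl, -0.062 to 2.42 for Csf2ra over Kitl, -0.16 to 0.46 for Kitl over Csf2rb and -0.54 to 1.997 for Csf2rb2 over Csf1. The cause was not tested. RefSeq coding lengths were planned and not run. With 8-fold or 32-fold in place of 16-fold, 2 members were again lower in replicate 4. No paired analysis was possible because there is 1 group. Levels under 3 counts per library are below what this depth can show.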

Other observations

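A row for the Csf1r pseudogene Csf1r-ps, which was in no comparison, held 32, 82, 74 and 36 reads in replicates 1 to 4, which is 1.55, 3.63, 3.18 and 1.77 CPM. Its values were high in replicates 2 and 3, while Csf1r was highest in replicates 1 and 2.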
